A study of Rattus norvegicus with 16 samples.

Results

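One treatment effect common to days 14 and 28 of dosing with 2-amino-4-nitrophenol (ANP) was estimated for the outer medulla of the rat kidney, from 12 of the 16 arrays of a time course. ANP is a nitroaromatic compound used in hair dyes. All 12 arrays that carry a replicate number and a day of 14 or 28 were used, 6 from ANP rats and 6 from vehicle rats (VC), with day as a covariate. Male Crl:CD Sprague-Dawley rats, 5 weeks old at the first dose, received either ANP at 750 mg/kg/day in corn oil or corn oil alone by daily gavage, and all groups shared strain, sex, route and vehicle. Each of the 4 groups (VC and ANP at day 14, VC and ANP at day 28) had 3 arrays, each of total RNA from 1 animal, and animals of different days were separate. The other 4 arrays held RNA pooled from 3 animals, 1 ANP and 1 VC array each for days 1 and 7, and took no part in the fit. The question was what the pooled test shows that the tests of single days, with 3 arrays against 3, miss.

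The outer medulla holds the straight S3 segment of the proximal tubule, the thick ascending limb and the outer collecting duct. The S3 segment takes up organic anions and conjugates many xenobiotics. Electrophiles and quinones are met in most cells by the transcription factor NRF2, which its partner KEAP1 normally marks for degradation and which, once stabilised, switches on reductases, glutathione enzymes, glucuronosyltransferases and export pumps. A separate arm, run by ATF4, switches on amino acid synthesis and transfer RNA charging when translation initiation is slowed.

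Values are log2 signals relative to the 75th percentile of the same array, so that 0 is the 75th percentile of all probes, and differences are log2 ratios of ANP to VC with the model's standard error (SE). Across the 12 arrays the 75th percentile ranged from 810 to 1033 and the share of probes well above background from 64.75% to 68.76%. Replicate arrays correlated at r of 0.985 to 0.992, a value taken over genes rather than independent replicates. The arrays were spread over slides so that all 3 ANP arrays of day 28 lay on a slide of their own. One slide held the 3 VC arrays of day 14 with 1 ANP array of day 14 (replicate 1), and another held the other 2 ANP arrays of day 14 with the 3 VC arrays of day 28. At day 28, slide and treatment therefore cannot be told apart. Among markers of the labelled zone, Umod of the thick ascending limb and Slc7a13 of the S3 segment were well above background on all 12 arrays, and so was Slc5a2 of the early proximal tubule, which lies in the cortex. In this bulk tissue, fewer cells of a type and less RNA per cell cannot be told apart.

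The common effect called 791 probes higher and 549 lower in ANP at a Benjamini-Hochberg adjusted p under 0.05, or 1340 of 61657 probes (2.17%). Represented by its brightest probe, each of 15284 named genes entered 1 count, and 298 were higher (1.95%) and 165 lower (1.08%). The test of day 14 alone called 1 gene, Gas2, and the test of day 28 alone called 376 (2.46%), 231 higher and 145 lower. Gas2, a protein of the actin and microtubule cytoskeleton, fell in all 3 tests, from VC values of 0.69, 1.05 and 0.88 to ANP values of -1.30, -0.91 and -1.55 at day 14, and from 1.60, 1.54 and 1.02 to 0.20, 0.13 and 0.22 at day 28. Its common log2 ratio was -1.67 ± 0.19 (SE; adjusted p = 0.00304). With the array median in place of the 75th percentile, 370 genes were higher and 124 lower, which moved the higher share of calls from 64.4% to 74.9%.

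Of the 463 genes of the common effect, 268 were called by neither single day, 163 higher (1.07% of all named genes) and 105 lower (0.687%). Another 194 were also called at day 28, and Gas2 by all 3 tests. Conversely, 181 genes were called at day 28 and not by the common effect. ANP and VC arrays did not overlap, in the same direction on both days, for 991 genes (6.48% of all named genes), among them 405 of the 463 called genes and 226 of the 268. The largest increases and decreases of the common effect named below were picked among genes without overlap. For them the lack of overlap was part of the choice. In the only comparison that stays within a slide, ANP replicate 1 of day 14 against the 3 VC arrays of day 14, all 298 and all 165 called genes lay in the direction of the common effect, with medians of 0.57 and -0.56. The share over all named genes was not computed. The choice of genes favoured this direction, since the 12 arrays behind the calls include the 3 VC arrays and that ANP array. With slide as a fixed block the test rests on that array alone and called 28 genes higher and 1 lower, 4 of them among the 463. With slide as a random block, 443 of the 463 remained called. The correlation within slides was estimated at 0.01, so this fit is nearly the one without a block. With all ANP arrays of day 28 on a slide of their own, it cannot separate slide from treatment.

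The counts depended on single arrays and on how the spread was estimated. Leaving out VC replicate 2, ANP replicate 2 or ANP replicate 3 of day 14 left 300, 302 and 231 genes called in common, of all directions. Leaving out VC replicates 1, 2 or 3 of day 28 left 200, 195 and 252, and leaving out ANP replicates 2 or 3 of day 28 left 191 and 246. Without VC replicate 1, VC replicate 3 or ANP replicate 1 of day 14 the counts were 425, 502 and 342. Without ANP replicate 1 of day 28 it was 402. The balance of directions moved too. Without VC replicate 3 of day 14, 255 genes were higher and 247 lower, a higher share of 50.8% in place of 64.4%. The counts of day 28 moved more. Without VC replicate 1, VC replicate 2 or ANP replicate 2 of day 28, the test of that day called 53, 30 and 50 genes in place of 376, and 25, 14 and 23 genes were called at day 28 and not in common in place of 181. Without VC replicate 3 of day 28 the 2 counts were 145 and 79. With the mean of the single days in place of the common effect, the 181 became 87. When each day was fitted on its own 6 arrays, without the spread of the other day, day 14 called 3 genes and day 28 called 1.

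**Figure D1:**
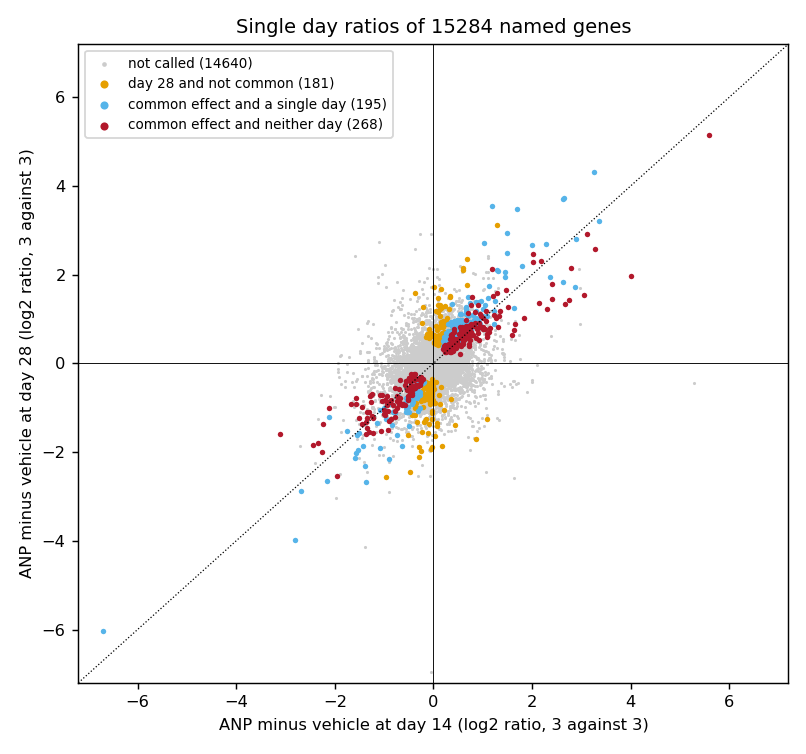
Log2 ratio of ANP to VC at day 14 (horizontal) and at day 28 (vertical) for 15284 named genes, 3 arrays against 3 on each day, coloured by which test called the gene; the dotted line marks equal ratios. The 268 genes called by the common effect and by neither day lie along the diagonal, and the 181 genes called at day 28 and not by the common effect lie near a day 14 ratio of 0.

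The 268 genes that only the common effect called were chosen by passing the pooled test and neither single day, which favours like ratios on both days, so their ratios are given as a description. The 163 higher genes had a median log2 ratio of 0.61 at day 14 and 0.62 at day 28, and the 105 lower genes -0.69 and -0.75, against -0.005 and -0.017 over all named genes. Their median SE was 0.12 for the common effect and 0.18 for a single day among the higher genes, and 0.15 and 0.22 among the lower. The day 14 ratio was the larger one in size for 122 of the 268. At day 28, 223 of them had an adjusted p from 0.05 to below 0.1 and the other 45 from 0.1 to below 0.2. At day 14, 229 of the 268 had an adjusted p of 0.2 or more. Single members could still have unlike ratios at day 14 and day 28, such as Ugt2b7 with 3.998 and 1.97 and Nefm with -2.11 and -1.01. Neither gene passed the test of the difference between the days. The choice of the 181 genes called at day 28 and not in common favours unequal days in the same way. Their median ratios were 0.13 at day 14 and 0.64 at day 28 where higher, and -0.098 and -0.83 where lower, and in 27 of them the sign differed between the days.

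The largest increase belonged to Akr1b8, an aldo-keto reductase that reduces reactive aldehydes and a known NRF2 target, which neither day alone called. Its VC values were 1.29, 0.94 and -2.01 at day 14 and -0.94, -0.72 and 1.47 at day 28. Its ANP values were 5.26, 6.03 and 5.68 at day 14 and 2.62, 6.50 and 6.12 at day 28. Every ANP array lay above every VC array, and 1 ANP array of day 28, replicate 1, lay well below the other two. The common log2 ratio was 5.36 ± 0.77 (SE; 41.1-fold, adjusted p = 0.00726), with adjusted p-values of 0.16 at day 14 and 0.0511 at day 28. The call held in all 12 fits that left out 1 array, at ratios from 4.88 to 5.93.

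Abcc2, the apical pump MRP2 that exports glutathione and glucuronide conjugates, gave the same picture. It stood at 1.08, 0.46 and 0.35 in VC and at 2.85, 3.61 and 3.80 in ANP at day 14, and at 0.93, 1.33 and 1.34 in VC and 1.92, 4.15 and 3.99 in ANP at day 28. The groups did not overlap on either day, and ANP replicate 1 of day 28 was again the lowest of its group. The common ratio was 2.47 ± 0.36 (SE; 5.54-fold, adjusted p = 0.00808), against adjusted p-values of 0.132 and 0.0628 on the single days. The basolateral conjugate pump Abcc3 rose by 0.79 ± 0.15 (adjusted p = 0.0219), again in the common effect alone, and lost the call in 4 of 12 fits that left out 1 array (highest adjusted p = 0.0597).

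**Figure D2:**
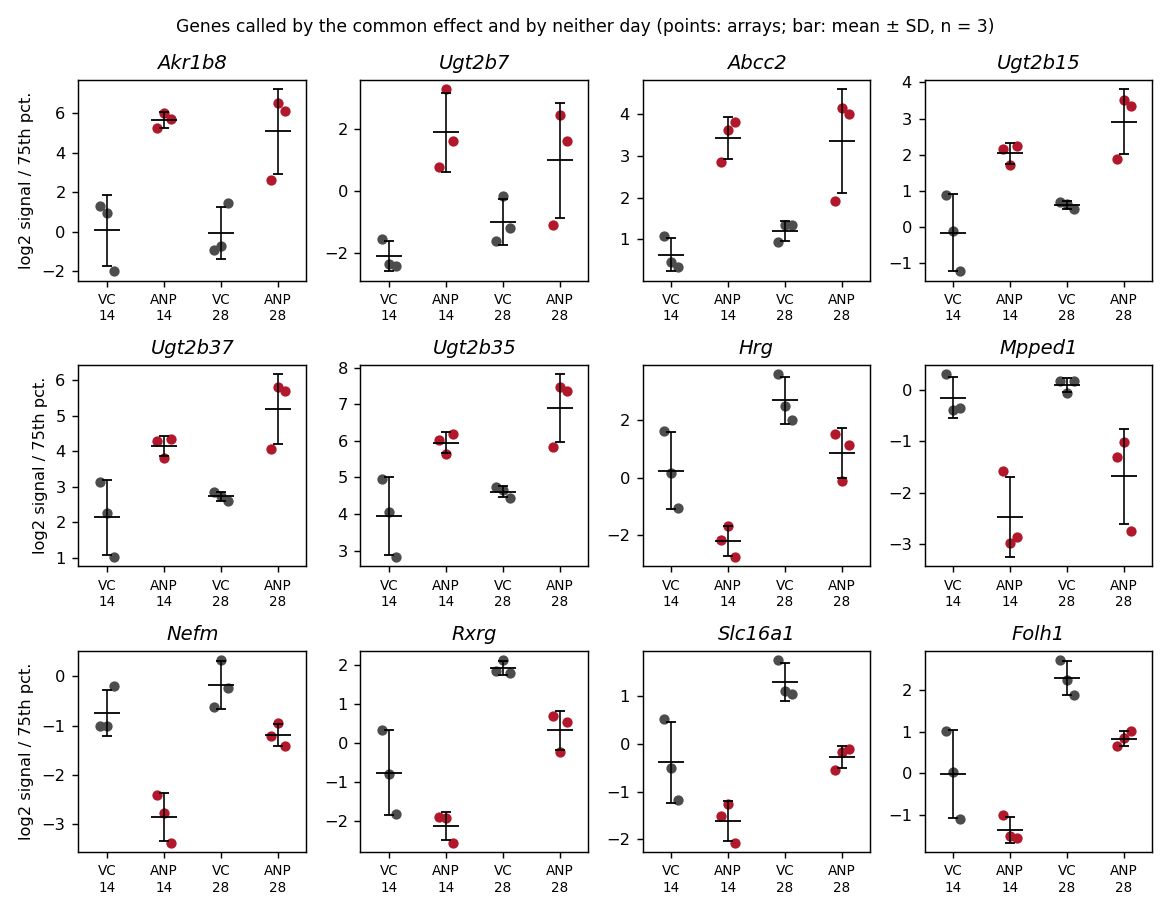
Log2 signal relative to the 75th percentile of the array for 12 genes called by the common effect and by neither day, 1 point per array (VC grey, ANP red) with the group mean ± SD of 3 arrays. ANP values of Akr1b8 lie between 2.62 and 6.50 and VC values between -2.01 and 1.47; the vehicle groups of the 2 days differ for several lower genes such as Rxrg, Slc16a1 and Folh1.

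Of 37 measured NRF2 target genes, 16 were higher and none lower in the common effect, at a median log2 ratio of 0.64, against -0.014 over all named genes. Over all 15284 named genes 1.95% were called higher and 1.08% lower, with 7230 ratios above 0 and 8054 not above 0. The counts of this list and of the lists that follow are to be read beside these. Day 28 alone called 11 of the list and the common effect added 7 that neither day called, namely Akr1b8, Abcc2, Srxn1, Abcc3, Gsta1, Slc48a1 and Gsr. The median member lay between -0.46 and -0.21 on the 6 VC arrays and between 0.13 and 0.69 on the 6 ANP arrays, without overlap. The list was chosen with earlier results of these arrays known, so its direction is not independent evidence.

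Reductases were among the other called NRF2 targets. Nqo1, the quinone reductase, stood at -1.01, -0.83 and -1.12 in VC and 1.17, 2.20 and 1.52 in ANP at day 14, and at -2.26, -2.51 and -1.18 in VC and 0.40, 2.12 and 2.61 in ANP at day 28. Its groups did not overlap, and the common ratio was 3.16 ± 0.40 (SE; 8.92-fold, adjusted p = 0.0043). Pir, an iron-binding nuclear protein, rose 5.62-fold, and Ptgr1, a reductase of prostaglandins and alkenals, 4.70-fold; both were also called at day 28.

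Gsr, which regenerates reduced glutathione, shows a small change that only the common effect resolved. Its values were 0.52, 0.68 and 0.32 in VC and 1.06, 1.06 and 1.09 in ANP at day 14, and 0.66, 0.81 and 0.61 in VC and 1.02, 1.44 and 1.31 in ANP at day 28. The groups did not overlap, and the ratio was 0.56 on each day and 0.56 ± 0.087 (SE; adjusted p = 0.0104) in common. Srxn1, the sulfiredoxin that repairs peroxiredoxins, passed narrowly at 1.66 ± 0.37 (adjusted p = 0.046) and kept the call in 1 of 12 fits that left out 1 array; without VC replicate 2 of day 28 the adjusted p was 0.112.

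Other well known targets of the pathway did not pass. Hmox1, haem oxygenase 1, stood at -1.83, -1.90 and -2.09 in VC and 0.36, 1.75 and 1.00 in ANP at day 14, and at -1.69, 1.19 and -2.03 in VC and -0.91, 1.18 and 2.32 in ANP at day 28. The groups overlapped at day 28, and the common ratio was 2.34 ± 0.65 (SE; adjusted p = 0.0938). Gclc and Gclm, the catalytic and modifier subunits of the ligase that starts glutathione synthesis, had common ratios of 0.093 ± 0.085 (adjusted p = 0.527) and 0.87 ± 0.30 (adjusted p = 0.158). Gclm was called at day 28 with a ratio of 1.72, against 0.006 at day 14. Txnrd1, thioredoxin reductase, had 0.40 ± 0.13 (adjusted p = 0.13).

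The promoter windows of RefSeq (GRCr8), 250 bases before to 50 after each gene's start, were searched on both strands for TGACNNNGC, the core of the antioxidant response element that NRF2 binds with a small MAF protein. It occurs in 12.2% of 27457 promoters. Of the 16 called NRF2 targets 11 had a promoter in the table and 5 of these held the letters, as did 9 of 28 among all measured members. A match describes letters and does not show a site in use. Among the 5, the match lay after the start in Abcc2 and Gsta1 and before it in Gsta3 (positions -17 to -9), in the glutathione transferase Gstp1 and, at a pair of places, in Pir (one of them at -9 to -1). The windows of Gstp1 and of the other match of Pir are shown because these lie farthest before the start, with the matched bases in capitals. Gstp1 is on the minus strand at chr1:210769738-210769786, with the match at positions -61 to -53 from the start. Pir is on the minus strand at chrX:33851135-33851183, with the match on the opposite strand at positions -114 to -106. Each is written 5′ to 3′ along its gene.
Gstp1: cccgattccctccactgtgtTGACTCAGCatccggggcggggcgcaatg
Pir: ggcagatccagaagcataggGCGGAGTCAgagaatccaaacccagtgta

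Gstp1 itself stood at 7.93, 7.81 and 7.57 in VC and 8.48, 8.45 and 8.47 in ANP at day 14, and at 6.67, 6.90 and 7.37 in VC and 8.07, 8.82 and 8.54 in ANP at day 28. The groups did not overlap, and the common ratio was 1.10 ± 0.19 (SE; adjusted p = 0.0166). It belongs to the glutathione S-transferases, which couple electrophiles to glutathione. Of 24 measured transferases 9 were higher and none lower, at a median of 0.52, and 2 of the 9, Gstm2 and Gsta1, were called by neither day.

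The mu class led this family. Gstm1 stood at 1.36, 1.28 and 0.28 in VC and 4.44, 4.29 and 3.998 in ANP at day 14, and at -0.12, 1.09 and 0.22 in VC and 2.66, 6.10 and 5.39 in ANP at day 28. Its groups were apart on both days, with a common ratio of 3.79 ± 0.53 (SE; 13.9-fold, adjusted p = 0.00618). Gstm3, Gstm7, Gstm5 and Gstm2 followed at 2.34, 1.75, 1.21 and 1.10. Gstm3 was well above background on 7 of 12 arrays, so its ratio rests partly on dim values, and Gstm2 kept the call in 4 of 12 fits that left out 1 array (highest adjusted p = 0.0725). These genes are close copies of each other and a probe may bind more than 1 transcript, so which member rose is uncertain. Gstk1 and Gstz1 were called at day 28 and not in common (adjusted p = 0.131 and 0.053).

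Of 14 measured genes of glucuronidation 6 were higher and none lower, at a median of 0.51, and 4 of the 6 were called by neither day. Ugt2b7, which attaches glucuronic acid to many drugs, stood at -1.54, -2.36 and -2.40 in VC and 0.79, 3.29 and 1.61 in ANP at day 14, and at -1.60, -0.17 and -1.18 in VC and -1.08, 2.44 and 1.61 in ANP at day 28. The groups were apart at day 14 and overlapped at day 28. Its common ratio was 2.99 ± 0.67 (SE; adjusted p = 0.046), which kept the call in 1 of 12 fits that left out 1 array and reached 0.105 without VC replicate 1 of day 28.

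Ugt2b15, Ugt2b37 and Ugt2b35 rose by 2.25 ± 0.35, 2.23 ± 0.37 and 2.15 ± 0.36 (adjusted p = 0.0114, 0.0149 and 0.0153), and each was called in all 12 fits that left out 1 array. Their single day adjusted p-values lay between 0.225 and 0.288 at day 14 and between 0.0502 and 0.0568 at day 28. Ugt2b15 stood at 0.88, -0.10 and -1.23 in VC and 2.17, 1.72 and 2.24 in ANP at day 14, and at 0.70, 0.64 and 0.50 in VC and 1.88, 3.53 and 3.35 in ANP at day 28. Its ANP arrays all lay above the VC arrays. The arrays kept the same order within each day for the other 2, and the 3 are close copies whose probes may share signal, so they should be read as 1 observation. Ugt1a2 and Ugt1a6 rose by 0.65 and 0.60 and were also called at day 28; each kept the common call in 3 of 12 fits that left out 1 array (highest adjusted p = 0.0855 and 0.0878).

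**Figure D3:**
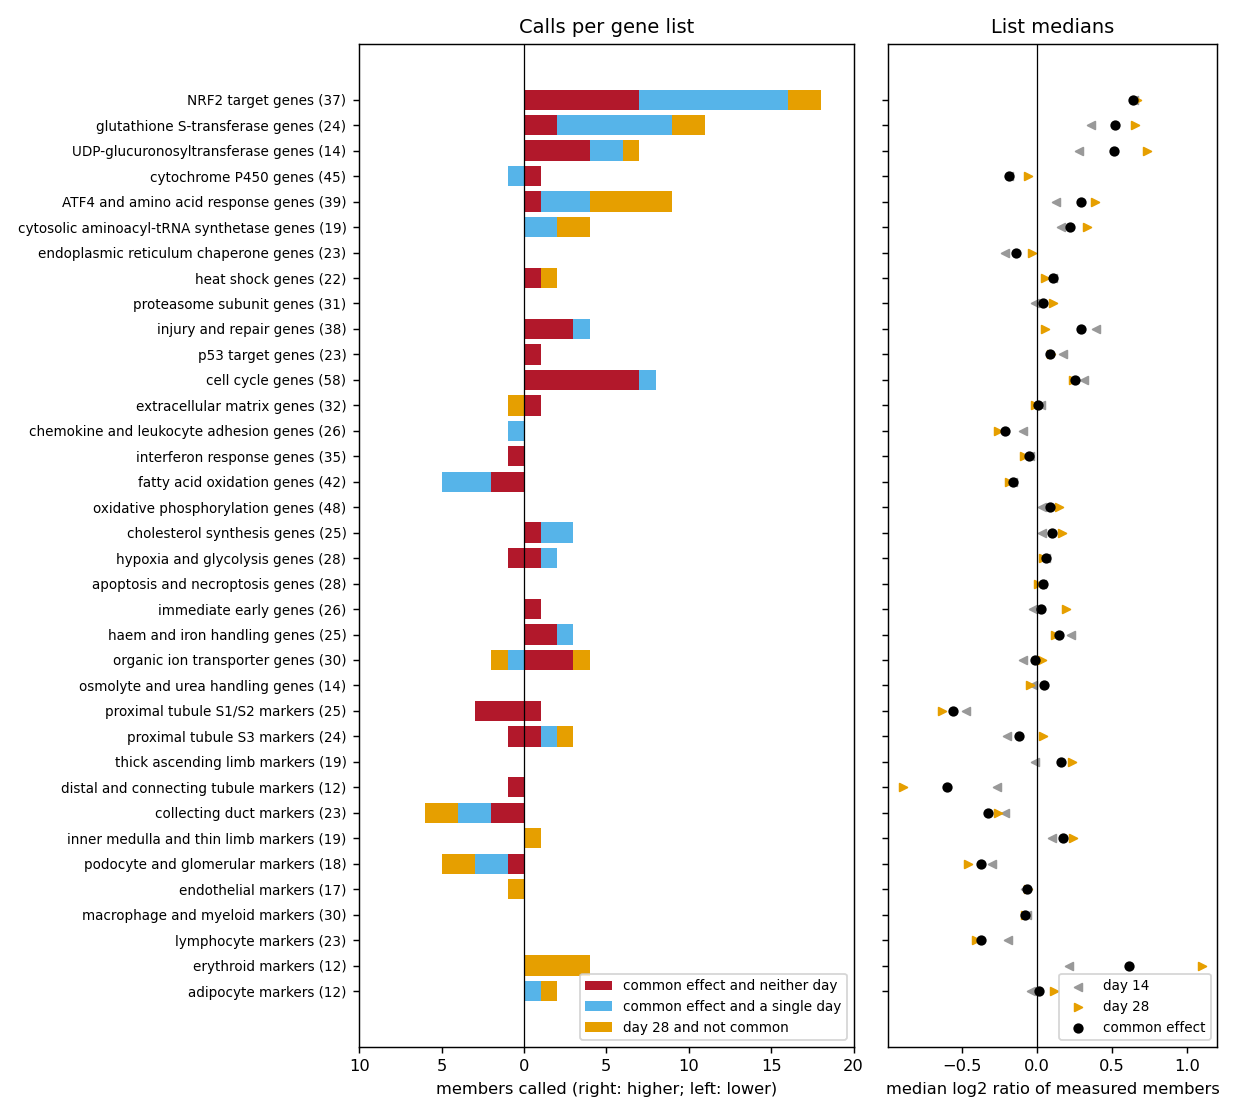
Left, members of 36 gene lists called higher (right of 0) or lower (left of 0), with the number of measured members in brackets and the colour showing which test called them; right, the median log2 ratio of the measured members in common, at day 14 and at day 28. NRF2 target genes have 16 calls in common with nearly equal medians on both days (0.64 and 0.67), and of the 8 cell cycle genes called in common 7 were called by neither day.

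Of 45 measured cytochrome P450 genes 1 was higher and 1 lower, and 31 of the 45 ratios were below 0, at a median of -0.18. Over all named genes 1.95% were called higher and 1.08% lower, and 8054 of 15284 ratios were not above 0. The number of calls in this family was thus near that over all genes. That median was -0.071 after normexp with quantile normalization and -0.028 with slide as a fixed block. Cyp2c11, a male-specific steroid and drug hydroxylase, had the largest decrease of all. It stood at 1.32, 3.99 and 2.99 in VC and -3.28, -4.45 and -4.08 in ANP at day 14, and at 2.45, 3.59 and -2.13 in VC and -4.94, -3.72 and -5.52 in ANP at day 28. The groups were apart on both days, although VC replicate 3 of day 28 lay far below the other VC arrays. The common ratio was -6.36 ± 0.87 (SE; adjusted p = 0.00578). Cyp3a9 rose by 1.27 ± 0.28 (adjusted p = 0.0428) in the common effect alone, with 5 of 12 arrays well above background, and kept the call in 2 of 12 fits that left out 1 array (highest adjusted p = 0.0944).

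ATF4 and amino acid response genes had more calls at day 28 than in common. Of 39 measured members 4 were higher in common, with a median of 0.13 at day 14 and 0.39 at day 28, and 8 were called at day 28, of which 5 were not called in common. Asns, asparagine synthetase, stood at -0.11, -0.58 and -0.77 in VC and 0.82, 0.97 and 1.83 in ANP at day 14, and at -0.75, -0.86 and -0.82 in VC and 2.09, 2.90 and 3.00 in ANP at day 28. Its groups were apart, with ratios of 1.69 and 3.47 on the single days and 2.58 ± 0.34 (SE; adjusted p = 0.00474) in common. Mthfd2, of mitochondrial folate metabolism, and Pycr1, of proline synthesis, rose by 1.87 and 2.22, Mthfd2 with a call in 7 of 12 fits that left out 1 array (highest adjusted p = 0.058). The stress cytokine Gdf15, at 0.67 ± 0.13 (adjusted p = 0.0298), was the 1 member that only the common effect called, and it kept the call in 4 of 12 fits that left out 1 array (highest adjusted p = 0.0779).

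The 5 members called at day 28 and not in common were Nupr1, Atf5, Slc6a9, Atf4 and Aldh18a1. Nupr1, a chromatin-bound stress protein, stood at 0.10, 1.11 and 2.40 in VC and 1.77, 2.35 and 3.34 in ANP at day 14, where the groups overlapped, and at 0.60, 0.62 and 0.56 in VC and 2.76, 3.62 and 4.76 in ANP at day 28, where they did not. Its common adjusted p was 0.0522 and that of Atf5 was 0.0536. Trib3, Ddit3 and Atf3, further genes of this response, had common ratios of 1.32, 0.47 and 1.22 (adjusted p = 0.104, 0.107 and 0.0581). Of 19 cytosolic aminoacyl-tRNA synthetases, which load amino acids on transfer RNA, Nars1 and Yars1 were higher in common, in 1 and 6 of 12 fits that left out 1 array (highest adjusted p = 0.116 and 0.0767), and at day 28, and Cars1 and Sars1 at day 28 and not in common.

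The window of Pycr1 is shown because it was the 1 called ATF4 target with TGATGNAA, the core of the amino acid response element that ATF4 binds, searched on both strands of the same windows. These letters occur in 3.82% of 27457 promoters and in 6 of 34 list members with a promoter. Pycr1 lies on the minus strand of GRCr8 at chr10:106420916-106420963 and the match at positions -131 to -124 from its start (RefSeq), in capitals.
Pycr1: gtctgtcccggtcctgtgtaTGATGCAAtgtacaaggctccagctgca

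Cell cycle genes were called mostly by the common effect and not by day 28. Of 58 measured members 8 were higher and none lower in common, 1 was called at day 28, and 50 of the 58 ratios were above 0, at a median of 0.25, with 0.31 at day 14 and 0.24 at day 28. Over all named genes 1.95% were called higher and 7230 of 15284 ratios were above 0. E2f1, the S phase transcription factor, was called in common and at day 28. Gins1, Cdc45, Cdt1 and Rfc4 of DNA replication, Tk1 of thymidine supply, Chek1 of the replication checkpoint and Birc5 of mitosis were called by neither day.

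Gins1, a subunit of the replicative helicase, stood at -1.68, -1.98 and -2.32 in VC and -1.29, -0.74 and -1.16 in ANP at day 14, and at -2.73, -2.42 and -2.36 in VC and -1.38, -1.41 and -1.98 in ANP at day 28. The groups were apart on both days at ratios of 0.93 and 0.91, and the common ratio was 0.92 ± 0.15 (SE; adjusted p = 0.0136). Birc5, survivin, stood at -0.028, -0.60 and -0.033 in VC and 0.91, 0.73 and 0.71 in ANP at day 14, and at -1.13, -0.44 and -0.53 in VC and 0.20, -0.074 and 0.25 in ANP at day 28, a common ratio of 0.91 ± 0.14 (adjusted p = 0.0114). For both genes each treatment was lower at day 28 than at day 14. The median member lay between -0.63 and 0.15 on VC arrays and between -0.29 and 0.74 on ANP arrays, so the treatments overlapped across days, and within a day they were apart at day 14 and overlapped at day 28. Of the 8, Gins1, Birc5, Tk1 and E2f1 were called in all 12 fits that left out 1 array. Cdc45, Chek1, Cdt1 and Rfc4 kept the call in 5, 3, 2 and 2 of them, with adjusted p-values up to 0.099. Lymphocytes and red cell precursors can also carry cell cycle RNA. Lymphocyte markers had 22 of 23 ratios below 0 and no call, at a median of -0.37, which was 0.195 with slide as a fixed block. Erythroid markers had 11 of 12 ratios above 0 and no call in common, at a median of 0.615. That erythroid median was 0.09 with slide as a fixed block and 0.395 after normexp with quantile normalization. On the pooled arrays, 1 of 11 erythroid ratios was above 0 at day 1 and 2 of 11 at day 7. The part of these cells in the cell cycle values was not tested.

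Injury and repair genes had 4 calls of 38, all higher, at a median of 0.39 at day 14 and 0.056 at day 28. The median member lay at 0.771 on ANP replicate 2 of day 14, against 0.005 and 0.117 on the other 2 ANP arrays of that day, and without that array the common median of 0.292 was 0.16. Myc, the annexin Anxa2 and its partner S100a10 rose by 0.66, 0.67 and 0.44 in the common effect alone, and Areg, a ligand of the epidermal growth factor receptor, by 2.37 ± 0.52 (SE; adjusted p = 0.0447), also at day 28. None of these 4 calls held in all 12 fits that left out 1 array, and Areg reached an adjusted p of 0.107 without VC replicate 2 of day 28. Havcr1 and Clu, both used as markers of tubular injury, are among the 34 list members not called in common. Havcr1, kidney injury molecule 1, stood at -3.10, -4.02 and -3.60 in VC and -2.48, -0.079 and -1.86 in ANP at day 14, and at -2.89, -4.09 and -3.74 in VC and -3.33, -3.64 and -3.84 in ANP at day 28. The groups were apart at day 14 and overlapped at day 28. The ratios were 2.10 and -0.030 on the 2 days, and 1.04 ± 0.49 (SE; adjusted p = 0.218) in common. Clu, clusterin, had ratios of 1.10 and -0.22 on the 2 days (common adjusted p = 0.282). The difference between the days was -2.13 for Havcr1 and -1.32 for Clu, and neither was called (adjusted p = 0.456 for both).

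Of 23 p53 targets 1, Ccng1, rose (0.29 ± 0.066, adjusted p = 0.0465) and kept the call in 1 of 12 fits that left out 1 array (highest adjusted p = 0.118), and Cdkn1a and Mdm2, the most used readouts of p53, had common ratios of 0.084 and 0.16 (adjusted p = 0.658 and 0.191). Endoplasmic reticulum chaperones (23 measured), proteasome subunits (31), oxidative phosphorylation genes (48) and genes of apoptosis and necroptosis (28) had no call in either direction, with medians between -0.14 and 0.084. Of 22 heat shock genes only Hspb8 was higher, at 1.20 ± 0.16 (adjusted p = 0.00578), which neither day called. For lists with 1 call, the share called higher over all named genes was 1.95%.

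Of 42 fatty acid oxidation genes 5 were lower and none higher, and 31 of the 42 ratios were below 0, at a median of -0.16, or -0.025 with slide as a fixed block. Pex11a, which acts in peroxisome division, stood at 4.44, 4.26 and 4.47 in VC and 4.06, 3.87 and 3.56 in ANP at day 14, and at 5.14, 5.29 and 4.80 in VC and 4.30, 4.41 and 4.19 in ANP at day 28. On both days all ANP arrays lay below the VC arrays, VC was higher at day 28 than at day 14, and the common ratio was -0.67 ± 0.11 (SE; adjusted p = 0.0153). Eci1 and Hadh of beta-oxidation and the acyl-CoA synthetase Acsm2 fell by 0.57, 0.50 and 0.50, and Eci1 and Acsm2 were called by neither day. Hadh, Eci1 and Acsm2 kept the call in 10, 3 and 1 of 12 fits that left out 1 array (highest adjusted p = 0.0588, 0.09 and 0.11).

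Haem synthesis and handling gave 3 calls of 25, all higher, and 2 of these only in common. Alas1, the rate-limiting enzyme of haem synthesis, stood at 4.77, 5.51 and 4.76 in VC and 6.67, 6.50 and 6.43 in ANP at day 14, and at 4.52, 5.38 and 5.57 in VC and 6.68, 6.57 and 6.01 in ANP at day 28. All ANP arrays lay above all VC arrays, at a common ratio of 1.39 ± 0.21 (SE; adjusted p = 0.0084) and single day adjusted p-values of 0.147 and 0.0599. The haem transporter Slc48a1 rose by 0.64 ± 0.087 (adjusted p = 0.00578), also in common alone, and Blvrb, biliverdin reductase B, by 0.44, with a call in 2 of 12 fits that left out 1 array (highest adjusted p = 0.103). Of 25 cholesterol synthesis genes Acat2, Pmvk and Tm7sf2 were higher, at 0.58, 0.39 and 0.69, and kept the call in 10, 5 and 11 of those fits. The median of that list was 0.098, and -0.036 with slide as a fixed block.

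Among 30 organic ion transporters, Abcc2, Abcc3 and Slc22a12 were higher and called by neither day, and Slc22a5, the carnitine transporter, was lower (-0.78 ± 0.11, adjusted p = 0.0075) and also called at day 28. Slc22a12, the urate exchanger URAT1, stood at 4.98, 4.30 and 4.48 in VC and 5.22, 4.99 and 5.51 in ANP at day 14, and at 4.46, 4.60 and 4.25 in VC and 5.23, 5.50 and 5.13 in ANP at day 28. The groups did not overlap, at 0.75 ± 0.14 (SE; adjusted p = 0.0211), and it kept the call in 9 of 12 fits that left out 1 array. Slc22a7, the anion transporter OAT2, was called at day 28 and not in common, with a ratio of 1.68 against 0.15 at day 14.

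Genes of the cortical proximal tubule (S1 and S2) were mostly below 0, with 24 of 25 ratios negative, a median of -0.56, 3 members called lower and Slc22a12 higher, and all 4 calls came from the common effect alone. Lrp2, megalin, the receptor for filtered proteins, stood at 6.23, 5.79 and 5.68 in VC and 5.57, 5.22 and 5.48 in ANP at day 14, and at 6.24, 6.36 and 6.27 in VC and 5.40, 5.78 and 5.54 in ANP at day 28. It fell by 0.60 on the log2 scale, and its groups did not overlap (SE 0.11, adjusted p = 0.0258). Slc7a8, an amino acid exchanger, and Amn, of the cubilin complex, fell by 1.21 and 0.47. None of the 4 calls held in all 12 fits that left out 1 array; Slc7a8 and Amn kept theirs in 2 each, with adjusted p-values of 0.117 and 0.0764 without VC replicate 2 of day 28.

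The level of these markers also moved between the vehicle groups, which bears on how the arrays compare. In replicate order, the median S1/S2 marker lay at 0.29, -0.28 and -0.62 on the VC arrays of day 14. On those of day 28 it lay at 0.88, 1.03 and 0.61. The ANP arrays ranged from -0.81 to -0.40 at day 14 and from 0.18 to 0.36 at day 28. In the vehicle groups 23 of 25 S1/S2 markers and all 12 measured distal tubule markers were higher at day 28 than at day 14, at median differences of 1.07 and 1.36, against 0.010 over all named genes. How much cortex each sample held, and its part in these results, was not tested.

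Other markers of cortical cells went the same way. Of 18 podocyte and glomerular markers 14 had ratios below 0 (median -0.37), and Ptprq, Wt1 and Clic5 were called lower, at -1.49, -1.23 and -0.60. Wt1, the podocyte transcription factor, stood at -1.71, -2.63 and -3.46 in VC and -3.49, -3.93 and -4.41 in ANP at day 14, and at -0.33, -0.43 and -0.80 in VC and -1.89, -1.45 and -1.55 in ANP at day 28. The groups were apart within each day and the 2 days differed in both treatments; it was called by the common effect alone and kept the call in 3 of 12 fits that left out 1 array (highest adjusted p = 0.0976). Ptprq kept its call in 9. Of 12 distal tubule markers Kl was lower, at -0.79, in 4 of those fits (highest adjusted p = 0.0726).

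Of 23 collecting duct markers 4 were lower and none higher, at a median of -0.32, against 1.08% called lower and 1.95% called higher over all named genes. Slc26a4 (pendrin) and Slc4a9, both of base-secreting intercalated cells, fell by 1.34 and 0.94 in the common effect alone. Hsd11b2, which shields the mineralocorticoid receptor from glucocorticoids, and Scnn1g, a subunit of the epithelial sodium channel, fell by 0.69 and 0.53 and passed at day 28 too. In at least 1 of the 12 fits that left out 1 array each of the 4 lost its call, and Slc26a4 reached an adjusted p of 0.0918 without VC replicate 1 of day 28. Of the markers of the zone itself, 24 of the S3 segment had 2 higher and 1 lower, with 16 ratios below 0 and a median of -0.12. Those of the thick ascending limb had no call, with 16 of 19 ratios above 0 and a median of 0.16. Their median member lay between -0.036 and 0.415 on the VC arrays of day 14 and between -0.393 and -0.061 on those of day 28. On the ANP arrays it lay between 0.058 and 0.29 at day 14 and between -0.09 and -0.007 at day 28.

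**Figure D4:**
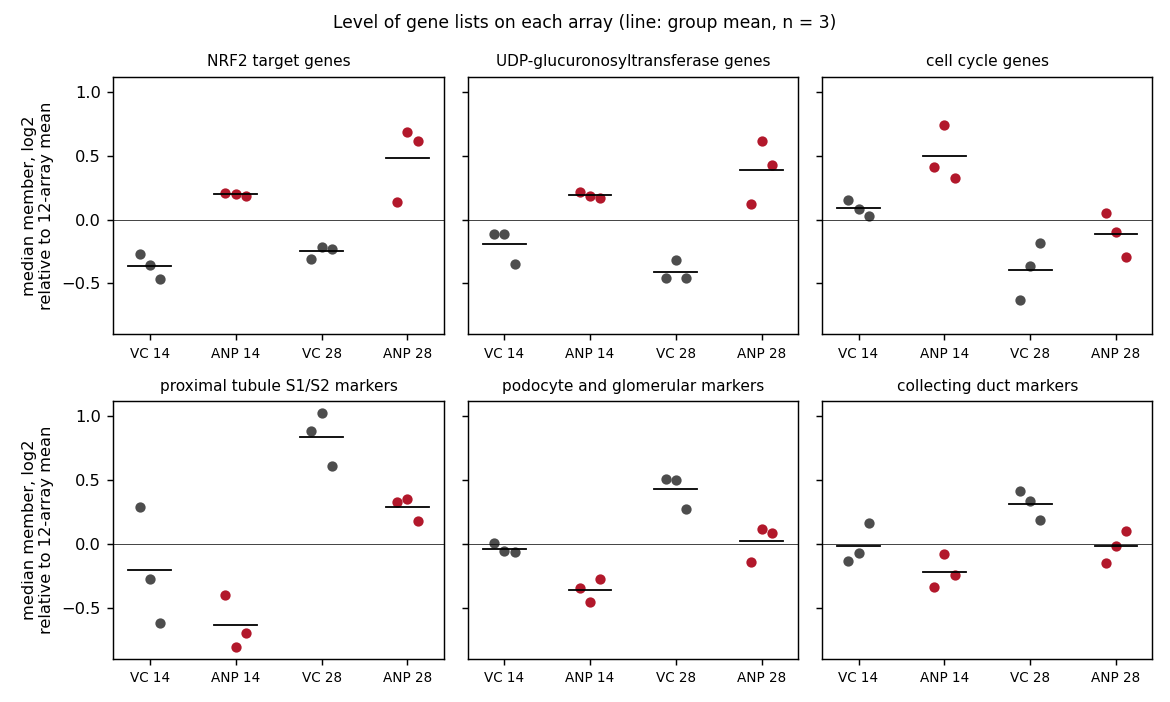
Median member of 6 gene lists on each array, after each gene was set relative to its mean over the 12 arrays (log2), with the group mean of 3 arrays as a line. ANP and VC are apart for NRF2 target and glucuronidation genes over all 12 arrays; for S1/S2, podocyte and collecting duct markers the VC arrays of day 28 (0.61 to 1.03 for S1/S2) lie above those of day 14.

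The lists of blood, immune and endothelial cell markers gave no call in common. Of 12 erythroid markers 11 had common ratios above 0. At day 28, 4 of the 12 were called higher, Hba-a1, Klf1, Rhd and Bpgm, against 231 of 15284 named genes. The erythroid list median was 1.10 at day 28 and 0.21 at day 14. Macrophage and myeloid (30), lymphocyte (23) and endothelial (17) markers had no call in common, at medians of -0.079, -0.37 and -0.069. The chemokine Cxcl11 fell by 1.00 and was also called at day 28. Of 12 adipocyte markers 6 had ratios above 0 and 6 below, at a median of 0.012. Cidea, a lipid droplet protein of brown fat, was the 1 adipocyte marker called in common, at 1.44 ± 0.17 (adjusted p = 0.00314). Over all 36 lists, 80 genes were called and 37 of them held the call in all 12 fits that left out 1 array.

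Some of the largest changes that only the common effect called fell outside the lists. Gabbr2, a subunit of the GABA-B receptor, stood at -2.08, -3.47 and -2.92 in VC and -0.29, -0.53 and -0.73 in ANP at day 14, and at -1.27, -2.15 and -0.59 in VC and -0.49, 0.064 and 0.12 in ANP at day 28. Within each day the ANP arrays lay above the VC arrays, and the ratio was 1.77 ± 0.32 (SE; adjusted p = 0.0212); it kept the call in 9 of 12 fits that left out 1 array (highest adjusted p = 0.0565). Gpr15lg, the ligand of the chemoattractant receptor GPR15, rose by 1.43 ± 0.23 (adjusted p = 0.0116) and held the call in all 12. Guca2b, the natriuretic peptide uroguanylin, and Dusp13b, a phosphatase, rose by 1.44 and 1.56 and held it in 8 and 4.

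On the lower side, Mpped1, a metallophosphoesterase, stood at 0.31, -0.39 and -0.35 in VC and -1.58, -2.99 and -2.87 in ANP at day 14, and at 0.18, -0.053 and 0.18 in VC and -1.30, -1.01 and -2.74 in ANP at day 28. All ANP arrays lay below all VC arrays, at -2.06 ± 0.33 (SE; adjusted p = 0.0121). Nefm, a neurofilament subunit, and Ros1, a receptor tyrosine kinase, fell by 1.57 and 1.25 and were called in all 12 fits that left out 1 array, as was Mpped1. Hrg, a plasma glycoprotein, Slc16a1, the monocarboxylate transporter MCT1, Rxrg, a retinoid X receptor, Folh1, glutamate carboxypeptidase II, Ceacam20, Usp26 and Hmx2 fell by between 1.24 and 2.14 and kept the call in 2 to 8 of those fits. Hrg reached an adjusted p of 0.104 without VC replicate 1 of day 28.

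Of the lower genes that day 28 also called, Gc, the vitamin D binding protein, fell by 2.41, the transcription factor Creb3l3 by 1.86, the beta-defensin Defb42 by 1.80, the scaffold protein Ppfia4 by 1.58 and the natural killer receptor Klrb1c by 1.54. Defb42 stood at -2.27, -2.18 and -2.18 in VC and -3.87, -3.70 and -3.75 in ANP at day 14, and at -1.88, -1.16 and -2.11 in VC and -3.63, -3.59 and -4.01 in ANP at day 28, without overlap. Smpd3, a neutral sphingomyelinase, fell by 1.65, but another of its probes had the opposite sign. On the higher side, the phosphatase Ppm1j rose 4.48-fold (adjusted p = 0.00232).

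A few genes were well above background in 1 treatment only, so that the fold is a lower bound. It sets the mean of the bright treatment against a floor on each dim array, namely the weakest signal that counted as well above background, or the signal of the probe where that was stronger. The lysozyme-like Lyzl1 was at least 7.44-fold higher (adjusted p = 0.00232) and Adh7, a retinol and alcohol dehydrogenase, at least 3.08-fold higher (adjusted p = 0.00697), both also called at day 28. Csmd1 was at least 4.99-fold higher and called by neither day (adjusted p = 0.0122), with another probe of opposite sign. Odad1, of ciliary dynein docking, was at least 1.38-fold lower, well above background on 2 VC arrays, and kept the call in 7 of 12 fits that left out 1 array (highest adjusted p = 0.0593).

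Some genes were called at day 28 and not by the common effect. Rhd, the erythrocyte Rh antigen, had ratios of 0.61 and 2.10 on the 2 days (common adjusted p = 0.0939), and Gfra1, the receptor of glial cell line-derived neurotrophic factor, -0.28 and -1.88 (common adjusted p = 0.135). Gfra1 stood at -1.67, -0.49 and -1.31 in VC and -1.33, -1.54 and -1.44 in ANP at day 14, and at 1.86, 2.09 and 0.98 in VC and -0.63, 0.36 and -0.44 in ANP at day 28. Its groups overlapped at day 14 and were apart at day 28, where VC was much higher than on the other day. Cilp, a cartilage matrix protein, had -0.51 and -1.62, the olfactory receptor Or52z12 -0.23 and -1.56, and Lhfpl2 0.44 and -1.39, with another probe of opposite sign.

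The difference between the days was tested directly, and no named gene by its brightest probe passed in limma after Benjamini-Hochberg adjustment, although 1406 of 15284 had an unadjusted p under 0.05. Over all probes 3 passed, all lower at day 28. The count of genes called at day 28 and not in common is therefore not a count of genes shown to differ between the days.

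For a panel of 27 measured genes an exact two-sided permutation test within days was also run, over 400 arrangements that allow no p below 0.005. The panel was chosen with earlier results of these arrays known and the test used the same arrays. Its p-values are therefore a check without a model and not independent evidence. That smallest p was reached by 8 genes, Akr1b8, Nqo1, Gstm1, Abcc2, Srxn1, Asns, Atf3 and Cyp2c11. Of these, Atf3 is the one that the moderated test over all probes did not call. Without adjustment for the 27 tests, the exact permutation p was 0.01 for Ugt2b7 and Trib3, 0.015 for Hmox1, Slc22a7 and Slc5a2, 0.02 for Txnrd1, Ddit3 and Mdm2, 0.05 for Gclm and 0.07 for Havcr1. Of these genes the moderated test over all probes called Ugt2b7.

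The pooled arrays of days 1 and 7 gave 1 ratio per day from RNA of other animals on a slide of their own, with no replicate and no test. Of 147 higher genes of the common effect alone that were above background on the pooled arrays, 71.4% were also higher in ANP at day 1 and 93.2% at day 7, at medians of 0.44 on each day, against 45.6% and 56.8% of 11562 named genes. Of 96 lower genes, 13.5% were higher at day 1 and 37.5% at day 7, at medians of -0.57 and -0.096. Akr1b8 had ratios of 5.90 and 5.36, Abcc2 of 4.17 and 3.65 and Ugt2b7 of 7.55 and 4.35 in the pools. S1/S2 markers, with 1 of 25 above 0 in common, had 2 of 25 above 0 at day 1 (median -0.52) and 20 of 25 at day 7 (median 0.275), and cell cycle genes had 40 of 57 above 0 at day 1 and 25 at day 7. Gins1 had 0.97 and 0.043. Havcr1, not called in common, had 9.63 and 4.23.

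**Figure D5:**
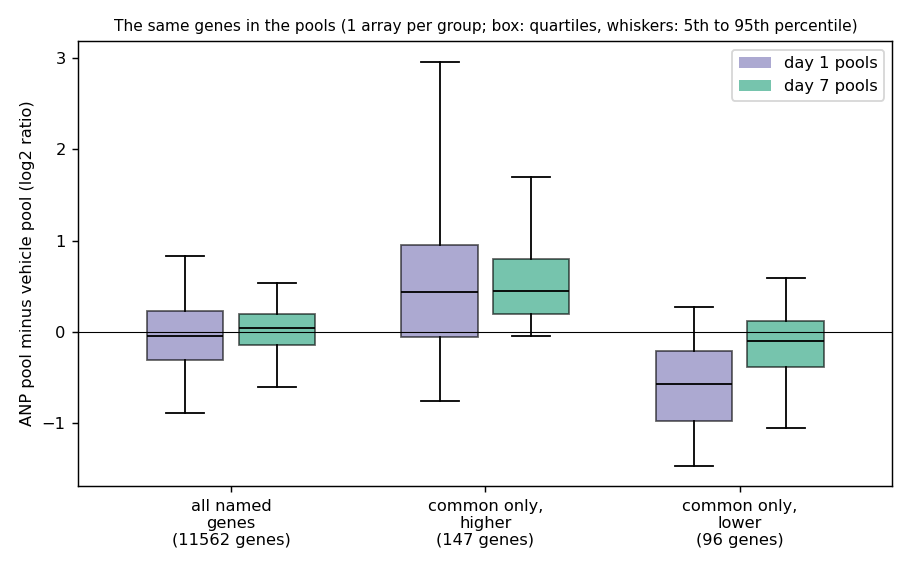
Log2 ratio of the ANP pool to the vehicle pool at day 1 and day 7 (1 array per group, no replicate) for all named genes and for the genes called by the common effect and by neither single day; boxes show quartiles and whiskers the 5th to 95th percentile. The 147 higher genes have medians of 0.44 on both days, and the 96 lower genes -0.57 at day 1 and -0.096 at day 7.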

How the data were processed

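The members and gene lists were chosen with earlier results of these data known. The authors deposited scanner files of one-colour arrays whose spots were read by the scanner software Agilent Feature Extraction, version 10.7 in the submitters' processing notes. Per the file headers, these hold the processed signal intensity, the median signal and background, and flags. The authors' deposited value table holds a ratio that matched the processed signal divided by the 75th percentile of the array (r of log2 values from 0.99991 to 1, column medians from 0.099 to 0.108). It is linear and not centred by gene, and served as an alternative. The genome build is not given in the sources used here.

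From the deposited intensity, log2 values minus each array's 75th percentile were computed for 61657 probes without controls. Spots flagged as outliers, 0 to 7 on an array, were treated as missing, and none was saturated. RefSeq accessions were turned into names through a table of the GRCr8 assembly. This named 27460 probes of 15284 genes, with 93.9% of NM and 1.9% of XM accessions matched. The other 34197 probes were tested without a name. A gene stands for its probe with the highest mean; of 254 called genes with several probes, 27 had another probe of opposite sign. The panel gene Mki67 is not analysed here.

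Tests used limma 3.58.1 in R 4.3.3 (lmFit, eBayes; day and treatment for the common effect, 1 mean per group for the single days and their difference) with Benjamini-Hochberg adjustment over all probes at 0.05. Errors are the model's SE, and the number of arrays limits the precision. A probe dim in all arrays of 1 treatment has only a bound. For 14 of the called genes no group had all its arrays well above background. The method was tested on simulated data with independent noise and equal effects on both days. These data held no slide, day or array effects, so that test does not cover the layout of these arrays. Named genes are the 12 largest increases and decreases called in common, and in common alone, 4 per direction called on a single day only, bounds, a panel and up to 4 called and 3 other members of each list. All but the bounds, the panel and the list members had to be well above background on all 12 arrays. The largest changes called in common also had to have groups that did not overlap on either day, so their lack of overlap is not a finding. Some examples were chosen after their values were seen, and some genes that the rule or the lists hold are counted but not reported here. Alternatives were other scalings, normexp (offset 50), filters on dim probes, the authors' table, a trend in the spread, no day covariate, the mean of the days, blocks, a threshold of 0.01, single days fitted apart, and leaving out each array. Normexp used the median signal in place of the mean signal that had been planned.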

Additional observations from a re-analysis of the deposited data

Results flagged for a closer look

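The treatment effect differed between the days for 3 probes, all in limma's test of the difference with adjustment over all probes. Probe A_43_P13248, of the cold receptor channel Trpm8 and not its brightest probe, had a day 28 minus day 14 difference of -2.76 (adjusted p = 0.00211). Its VC values were -5.54, -5.72 and -5.41 at day 28, and the other 9 arrays lay between -8.30 and -7.60. The unnamed probes A_44_P238885 and A_44_P323320 had differences of -1.66 (adjusted p = 0.00276) and -2.15 (adjusted p = 0.0419), with the same pattern of high VC arrays at day 28. At most 1 of the 12 arrays was well above background for each of the 3 probes. Groups of 3 arrays were not searched for single outlying arrays.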

How the results depend on the processing

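With all arrays and settings as reported, the common effect called 791 probes higher and 549 lower, 298 genes higher and 165 lower, and 163 and 105 genes that neither day called. Quantile normalization called 422 genes higher and 261 lower. Normexp with quantile normalization called 1438 probes higher and 1110 lower, 526 and 408 genes, and 163 lower genes that neither day called. Probes bright on all arrays of a group gave 1307 and 977 probes, 479 and 312 genes, and 169 lower genes in common alone, and probes bright on all 12 arrays gave 1344 and 1006 probes, 506 and 333 genes, and 170. Tests of 1 bright probe per gene, over far fewer tests, gave 637 and 416 genes, of which 282 and 239 in common alone. A trend in the spread gave 1244 and 842 probes, 478 and 287 genes, and 158 lower genes in common alone.

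Without the day covariate 393 and 132 probes and 147 and 37 genes were called, 49 and 19 of them in common alone. A threshold of 0.01 left 198 and 68 probes and 73 and 21 genes. Slide as a fixed block left 140 and 8 probes and 28 genes higher and 1 lower; single days could not be fitted with it. With single days fitted on only their own groups, day 14 called 3 genes and day 28 called 1, so that 296 and 163 genes were called in common alone: the count that single days miss depends on how their spread is estimated. Median scaling gave 370 and 124 genes, and the other scalings moved the median of all probes from -0.046 to between -0.007 and 0.003.

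Leaving out 1 array at a time, the probes higher ranged from 356 (without ANP replicate 2 of day 28) to 767 (without VC replicate 1 of day 14) and the probes lower from 188 (without VC replicate 2 of day 28) to 751 (without VC replicate 3 of day 14). The genes higher ranged from 130 to 287 and lower from 55 to 247, those in common alone from 83 to 142 and from 41 to 177, and probes that differed between the days from 2 to 10. Between 189 and 348 of the 463 genes remained called. The authors' table, the mean of the days and slide as a random block (consensus correlation 0.01) called 443, 550 and 443 genes. No called gene among those named by the rule or the lists changed sign under an alternative that was run. Of 47 genes not called 7 did, 6 of them with slide as a fixed block alone, and Slc7a13 (-0.004) ran from -0.103 to 0.047 without 1 array. Of 36 list medians 10 changed sign under at least 1 alternative, 3 of them with the slide block alone; all but that of lymphocyte markers (-0.37, and 0.195 with the slide block) were within 0.098 of 0. Over all alternatives 3139 gene values kept their side of the threshold, 720 fell below it and 131 rose past it, and 17 list medians moved by more than the spread between arrays, 10 of them with the slide block.

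Replicate numbers are shared between treatments. Same-numbered arrays had residual correlations of 0.122, 0.049 and 0.139 at day 14 and -0.057, -0.015 and 0.088 at day 28, so the numbers were not taken as pairs. With them as a replicate block, 268 and 193 probes and 99 and 62 genes were called, all of the genes in common alone, since no single day called any.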

Other observations

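Within a group, the order of the arrays in the called genes was not that over all 15273 named genes with a value on every array. VC replicate 3 of day 14 was the lowest of its group in 51.5% of 297 higher genes and in 53.3% of 165 lower genes, against 35.1% of all. VC replicate 3 of day 28 was the lowest in 54.5% of the lower genes, against 29.5%, and ANP replicate 1 of day 14 the highest in 53.3% of them, against 33.1%. ANP replicate 1 of day 28, the lowest of its group for Akr1b8, Gstm1, Abcc2 and Nqo1, was the lowest in 41.8% and the highest in 34% of the 297, against 28.2% and 49% of all. These shares were not tested.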
